A study of Mus musculus with 4 samples.

Results

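The genes described here encode 10 receptor chains through which T cells sense cytokines other than interleukin-2: Il7r, Il4ra, Il21r, Il6ra, Il6st, Il27ra, Il12rb1, Il12rb2, Il10ra and Ifngr1. They were chosen by name, as every transcript cluster whose platform symbol is one of them, with earlier results of these data known. All 10 were measured, each by 1 cluster, among 30495 genes in all. Shares of all genes given below are therefore a scale for the counts, not a test of the list. Single-colour arrays measured their expression in regulatory T cells, the CD4 T cells that express Foxp3 and hold immune responses in check. The cells were taken from spleens at an age of 7 to 8 weeks, and each sample held 15000 to 40000 cells sorted by green fluorescence. Both groups carried the transgene B6-Tg(Foxp3EGFP-cre)1cJbs/J, which makes a fluorescent Cre recombinase under Foxp3 control, on C57BL/6. The control arrays (labelled WT, replicates 1 and 3) carried it alone. In the other arrays (labelled KO, replicates 1 and 2) it was crossed to BMI1-flox, to remove Bmi1, which encodes part of Polycomb repressive complex 1, from cells that express Foxp3. The titles and the treatment field describe cells without stimulation, but the series text has them stimulated through CD3 and CD28 for 24 h, and it is not settled which is right. The labels do not say whether samples came from separate or pooled animals, so the p-values reflect the spread between these samples alone, which may be technical, and precision is limited by the number of arrays.

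Values are the deposited log2 levels, and a difference is the mean of the arrays labelled KO minus the mean of those labelled WT. The medians of the arrays over all clusters lay between 4.65 and 4.72. T cell markers were bright on every array (Cd3e 16.28 to 16.91), as were the regulatory T cell markers (Il2ra 14.97 to 15.01, Ctla4 12.27 to 12.68). The cluster of Foxp3 also covers other genes, so Foxp3 has no value here. Bmi1 read 8.98 on both arrays labelled WT and 9.58 and 9.91 on those labelled KO, a difference of 0.77 (SE 0.16, limma adjusted p 0.300) that goes against the label. The sources used here do not say which exons its cluster covers, so a cluster outside the deleted part would check nothing. Every direction below therefore rests on the labels alone.

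Cytokine receptors of this kind have no enzyme of their own. A cytokine brings receptor chains together, Janus kinases bound to the chains phosphorylate them, and STAT transcription factors are recruited and move to the nucleus. Most of these chains belong to the class I receptors, and Il10ra and Ifngr1 encode chains of class II receptors. Several chains are shared: Il6st encodes the signalling chain for interleukin-6, interleukin-27 and oncostatin M, and Il12rb1 serves both interleukin-12 and interleukin-23. Regulatory T cells are known for low surface levels of the interleukin-7 receptor compared with other CD4 T cells, while receptors for interleukin-6, interleukin-12, interleukin-4 and interferon-gamma are known as routes by which inflammatory cytokines act on them.

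The promoter windows of the 3 genes whose differences were largest are shown because these genes sit in the same receptor subfamily and did not differ in the same direction. Windows run from 250 bases before to 50 bases after the annotated start and come from RefSeq on build GRCm38.p6, which held 7 of the 10 genes. Capitals mark matches, on either strand, to any of 5 motifs: TTCNNNGAA (STAT dimer), GTAAACA (forkhead), CCGGAAG (ETS), TGTGGTT (RUNX) and CACGTG (E-box). The windows are chr15:9529827-9530126 on the minus strand for Il7r, chr7:125552021-125552320 on the plus strand for Il4ra and chr7:125603179-125603478 on the plus strand for Il21r.
Il7r: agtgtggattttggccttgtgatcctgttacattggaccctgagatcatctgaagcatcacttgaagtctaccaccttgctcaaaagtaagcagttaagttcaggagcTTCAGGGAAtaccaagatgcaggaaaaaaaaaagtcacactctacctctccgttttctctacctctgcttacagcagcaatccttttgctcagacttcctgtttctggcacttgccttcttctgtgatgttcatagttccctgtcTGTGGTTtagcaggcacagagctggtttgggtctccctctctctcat
Il4ra: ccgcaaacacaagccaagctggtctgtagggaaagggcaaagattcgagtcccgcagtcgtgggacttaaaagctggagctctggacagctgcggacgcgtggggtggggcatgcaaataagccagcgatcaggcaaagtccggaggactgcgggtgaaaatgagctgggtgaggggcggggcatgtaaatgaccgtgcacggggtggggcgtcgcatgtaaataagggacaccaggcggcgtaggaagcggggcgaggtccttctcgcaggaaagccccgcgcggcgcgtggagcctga
Il21r: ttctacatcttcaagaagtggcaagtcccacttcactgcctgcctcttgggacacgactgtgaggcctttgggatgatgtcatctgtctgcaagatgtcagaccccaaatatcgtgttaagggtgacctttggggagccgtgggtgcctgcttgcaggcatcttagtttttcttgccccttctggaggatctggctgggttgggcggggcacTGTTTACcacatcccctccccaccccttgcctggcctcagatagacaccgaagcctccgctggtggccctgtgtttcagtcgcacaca
The Il7r window holds a STAT motif, TTCAGGGAA, starting at position -142 from the annotated start, and a RUNX motif starting 4 bases into the transcript. It has 1 CpG dinucleotide, and 14.1% of the 32851 RefSeq windows have as many or fewer. The Il4ra window has 25 CpG dinucleotides and none of the 5 motifs. In the Il21r window there are 7 CpG dinucleotides, which is also the median of all windows, and 1 forkhead motif starting at position -38. Among all windows, 8.30% hold the STAT motif, 3.65% the forkhead motif, 8.86% the ETS motif, 5.27% the RUNX motif and 7.15% the E-box. Of the other 4 members with a window, Il12rb2 has a STAT motif and Il6ra an E-box, while Il6st and Ifngr1 have none of the 5. Such a match is a description of the letters, not a binding site.

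None of the 10 receptor genes passed the test. At a Benjamini-Hochberg adjusted p under 0.05 over all genes (limma), 0 members were called, where 2 of 30495 genes (0.00656%) were called. The lowest adjusted p among the members was 0.270, for Il7r. At an unadjusted limma p under 0.05 there were 3 of 10, Il7r and Il4ra lower and Il21r higher in the arrays labelled KO, against 10.1% of all genes and 14.4% of the genes at or above the median gene. By direction, that was 2 members lower against 3.75% of all genes and 1 higher against 6.32%. Of the 15254 genes at or above the median gene, 631 were lower and 1560 higher at this threshold. The groups were fully separated for 6 members, against 38.4% of all genes and 45.0% of those at or above the median gene. Of these, 3 were higher (Il21r, Il12rb1 and Ifngr1, against 20.9% of all genes) and 3 lower (Il7r, Il4ra and Il6st, against 17.5%). Among the 15254 genes at or above the median gene, 4399 were higher and 2470 lower without overlap. The median difference of the members was -0.01, beside 0.01 for all genes, and the median size of a difference without its sign was 0.15, beside 0.10 for all genes and 0.14 for those at or above the median gene. With 2 arrays in each group, the smallest two-sided p of an exact permutation test is 0.333.

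**Figure D1:**
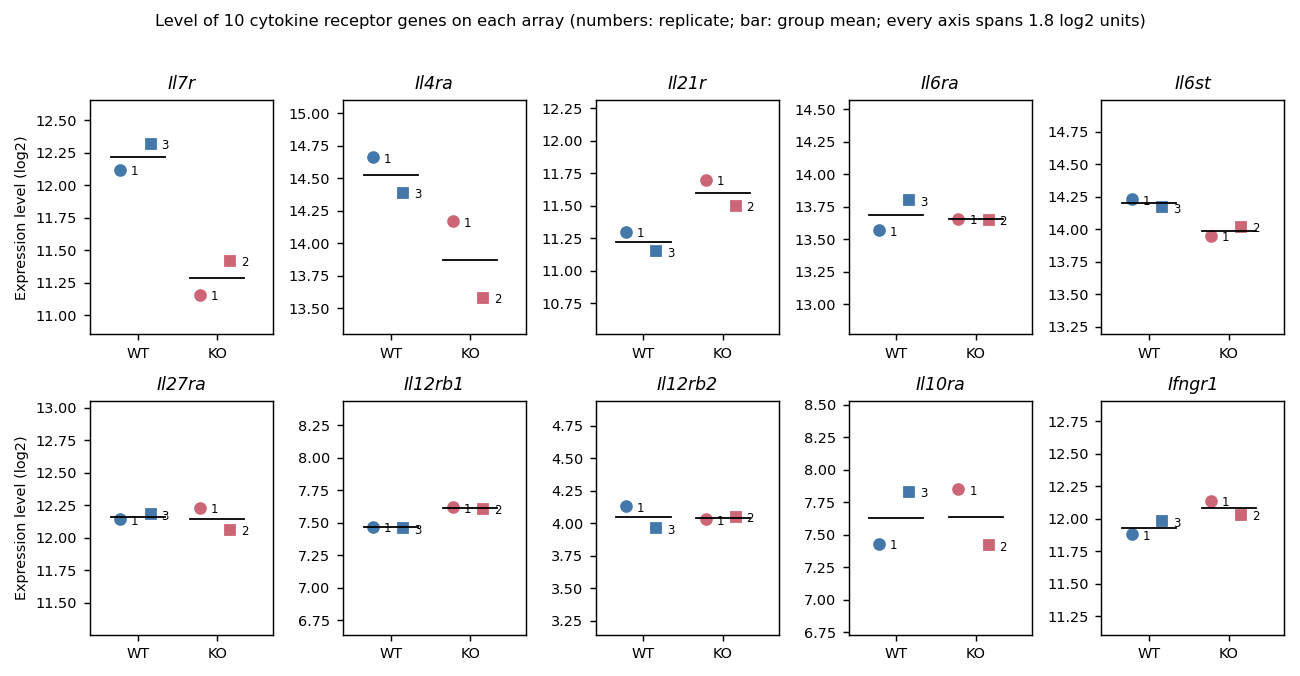
Log2 level of each of the 10 receptor genes (1 panel each) on the 2 arrays labelled WT and the 2 labelled KO; points are arrays with their replicate number, bars are group means, and every vertical axis covers the same span. Il7r lies at 12.12 and 12.32 on the arrays labelled WT and at 11.16 and 11.42 on those labelled KO, the widest separation among the panels.

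The chains that pair with the common gamma chain had the largest differences, with Il7r and Il4ra lower and Il21r higher in the arrays labelled KO. Il7r encodes the alpha chain of the receptor for interleukin-7, a survival factor for T cells, and also serves thymic stromal lymphopoietin. Its level was 12.12 and 12.32 in the arrays labelled WT and 11.16 and 11.42 in those labelled KO. Both arrays labelled KO lay below both arrays labelled WT, with 0.70 between the nearest arrays of the groups against 0.20 within WT and 0.26 within KO. Il7r differed by -0.93 in log2 units (SE 0.15, 95% interval -1.31 to -0.55), or 0.525 times the WT level (limma adjusted p 0.270). By size it ranked 251st and by p 150th among the 30495 genes. In bulk samples, fewer cells with the transcript and less transcript per cell cannot be told apart.

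Il4ra encodes the chain that binds interleukin-4 and, with a partner, also transmits interleukin-13, both tied to Th2 responses and to STAT6. Its level was 14.66 and 14.39 in the arrays labelled WT and 14.17 and 13.58 in those labelled KO. The groups did not overlap, but the arrays labelled KO lay 0.59 apart, more than the 0.22 between the nearest arrays of the groups. The difference was -0.65 (SE 0.22, 95% interval -1.20 to -0.10, 0.637 times, limma adjusted p 0.431). Without KO replicate 2 it was -0.35 and without KO replicate 1 it was -0.94, so the size depends on which KO array is used.

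Il21r encodes the specific chain for interleukin-21, a cytokine of follicular helper and Th17 cells that signals mainly through STAT3. It read 11.30 and 11.15 in the arrays labelled WT and 11.70 and 11.50 in those labelled KO, with 0.20 between the nearest arrays of the groups against 0.15 and 0.20 within them. The difference was 0.38 (SE 0.13, 95% interval 0.03 to 0.72, 1.30-fold, limma adjusted p 0.455). Il4ra and Il21r are next to each other on chromosome 7, with 0 other annotated gene starts between them in the RefSeq annotation, and their differences had opposite signs. Il21r minus Il4ra on the same array was -3.36 and -3.24 for WT and -2.47 and -2.08 for KO, a shift of 1.02. The pair was chosen after its values were seen, so no test is given.

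**Figure D2:**
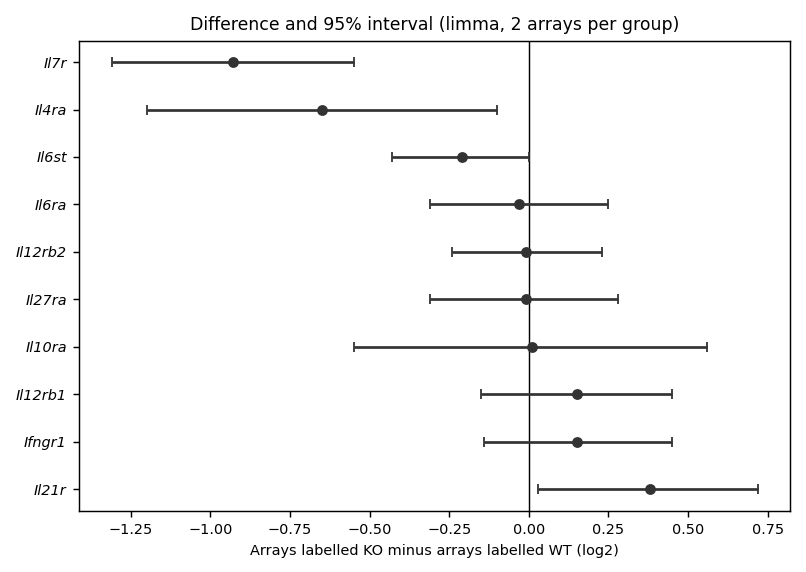
Difference between the arrays labelled KO and those labelled WT for each receptor gene (horizontal axis, log2), as points with 95% intervals from limma, 2 arrays per group. The intervals of Il7r (-1.31 to -0.55), Il4ra (-1.20 to -0.10) and Il21r (0.03 to 0.72) lie to 1 side of 0 before adjustment for the number of genes.

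Among the chains of the interleukin-6 family, no gene passed. The shared signalling chain read lower in the arrays labelled KO without overlap, and the cytokine-specific chains overlapped between the groups. Il6st, the shared chain, read 14.23 and 14.17 in the arrays labelled WT and 13.95 and 14.02 in those labelled KO. These groups did not overlap, and the spread within each was at most 0.07. The difference was -0.21 (SE 0.08, 95% interval -0.43 to 0.00, 0.862 times, limma adjusted p 0.496). Il6ra, which binds interleukin-6 itself, read 13.57 and 13.80 against 13.66 and 13.65, so both arrays labelled KO lay inside the range of those labelled WT. Its difference was -0.03 (SE 0.11, 95% interval -0.31 to 0.25). Il27ra, the specific chain for interleukin-27, read 12.14 and 12.18 against 12.23 and 12.06, a difference of -0.01 (SE 0.12, 95% interval -0.31 to 0.28). The intervals of Il6ra and Il27ra therefore do not reach a 2-fold difference in either direction, although a p that misses the threshold does not show equal levels. After a further quantile normalization Il6ra had -0.22 and Il27ra -0.17, beside -0.35 for Il6st.

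The receptor for interleukin-12, a Th1 cytokine that acts through STAT4, is built from the products of Il12rb1 and Il12rb2. Il12rb1 read 7.47 and 7.46 in the arrays labelled WT and 7.62 and 7.61 in those labelled KO. All arrays of 1 group agreed to 0.01 and the groups lay 0.14 apart at their nearest, yet the difference of 0.15 (SE 0.12, 95% interval -0.15 to 0.45, limma adjusted p 0.753) did not pass. In limma the spread of each gene is drawn towards that of genes of similar level, so the SE is larger than these 4 values alone would give. Il12rb2, the signalling chain that makes T cells responsive to interleukin-12, read 4.13 and 3.96 against 4.03 and 4.05, below the median gene on every array. The difference was -0.01 (SE 0.09), and at this level, where the table has no background measure, a change could be understated.

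Neither of the class II chains passed the test. Il10ra, which binds the suppressive cytokine interleukin-10, read 7.43 and 7.83 in the arrays labelled WT and 7.85 and 7.42 in those labelled KO. Each group holds 1 high and 1 low array, and the difference was 0.01 (SE 0.22, 95% interval -0.55 to 0.56), an SE as large as that of Il4ra. Ifngr1, the ligand-binding chain for interferon-gamma, read 11.88 and 11.98 against 12.14 and 12.03. These groups did not overlap, by 0.05, and the difference was 0.15 (SE 0.11, 95% interval -0.14 to 0.45, limma adjusted p 0.737). In all, the 95% intervals of 8 of the 10 members stayed within a log2 difference of 1 in either direction, and Il7r and Il4ra were the exceptions.

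Leaving out 1 array at a time kept the sign of Il7r (-1.06 to -0.80), Il4ra (-0.94 to -0.35), Il6st (-0.25 to -0.18), Il21r (0.28 to 0.47), Il12rb1 (0.14 to 0.15) and Ifngr1 (0.10 to 0.21). For Il7r the unadjusted limma p stayed under 0.05 in all 4 of these fits (0.00926 to 0.0223). For Il4ra it did so in 1 of 4 and for Il21r in 0 of 4. A further quantile normalization moved the brighter members down, by 0.19 for Il4ra and Il6ra, 0.15 for Il27ra and 0.11 for Il7r and Il21r, and gave -1.04 for Il7r, -0.84 for Il4ra and 0.27 for Il21r.

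**Figure D3:**
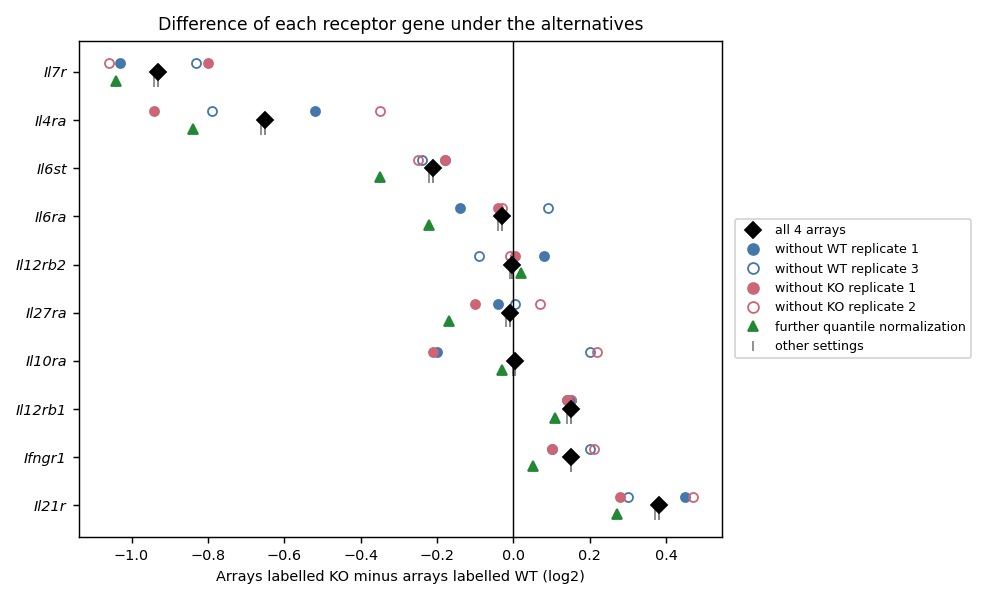
Difference of each receptor gene (horizontal axis, log2) with all 4 arrays (diamonds), without each array in turn (circles), after a further quantile normalization (triangles) and under the other settings (ticks). Il7r stays between -1.06 and -0.80, and Il10ra lies on either side of 0, from -0.21 to 0.22.

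The rest of these pathways was read from lists of ligands, partner chains, kinases, STATs, feedback regulators and cytokine-induced genes, in which 0 genes passed in either direction in limma (adjusted p under 0.05 over all genes). The partner chains had 2 of 9 measured members higher and 7 lower, with a median of -0.08 and 0 at an unadjusted p under 0.05. Il10rb, the partner of Il10ra, read 11.34 and 11.39 in the arrays labelled WT and 11.20 and 11.16 in those labelled KO, a difference of -0.18 (SE 0.11). Ifngr2, the signalling partner of Ifngr1, had -0.14 (SE 0.16). Il13ra1, which pairs with Il4ra for interleukin-13, had 0.17 (SE 0.18) but lay below the median gene on every array. Il2rg, the common gamma chain, has no named cluster here, so the partner of Il7r, Il4ra and Il21r was not analysed.

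Most of the ligand genes were dim. In 11 of 16 the value lay below the median gene on every array, 7 were higher and 9 lower, and the median was -0.01. The exception in size was Osm, which encodes oncostatin M, a cytokine that signals through Il6st. Osm read 6.05 and 6.26 in the arrays labelled WT and 5.61 and 5.54 in those labelled KO, without overlap, a difference of -0.58 (SE 0.12, 0.669 times, limma adjusted p 0.298). Il10 had 0.28 (SE 0.32), with 6.26 in KO replicate 1 and 5.29 to 5.56 in the other arrays, and without KO replicate 1 its difference was -0.21.

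Among the kinases, Tyk2, which serves the receptors for interleukin-12, interleukin-10 and type I interferons, read 8.19 in both arrays labelled WT and 7.87 and 7.67 in those labelled KO. That is a difference of -0.42 (SE 0.13, 0.747 times, limma adjusted p 0.422). Jak1, used by most of these receptors, had -0.04 (SE 0.07), or -0.24 after a further quantile normalization, and Jak2, used by the interferon-gamma and interleukin-12 receptors, had 0.02 (SE 0.14). Jak3 shares its cluster with another gene and has no value. The STAT genes had 1 of 6 higher and 5 lower with a median of -0.13, and 0 had an unadjusted p under 0.05. Stat4, the interleukin-12 effector, had 0.30 (SE 0.16) and Stat5b, which acts downstream of interleukin-7, had -0.21 (SE 0.15). Leaving out 1 array gave 0.12 (without WT replicate 3) to 0.48 (without WT replicate 1) for Stat4 and -0.33 (without KO replicate 1) to -0.10 (without KO replicate 2) for Stat5b.

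Feedback regulators end signalling by these receptors, and 7 of 20 were higher and 12 lower, with a median of -0.06. At an unadjusted limma p under 0.05 there were 2 of 20, against 10.1% of all genes in either direction. Both were lower, as were 3.75% of all genes at this threshold. Cbl, a ubiquitin ligase that tags activated receptors and kinases, read 14.56 and 14.86 in the arrays labelled WT and 13.78 and 14.14 in those labelled KO, a difference of -0.75 (SE 0.16, 0.595 times, limma adjusted p 0.317). This is the brightest of its clusters, and the mean of all its clusters gave -0.52 (SE 0.15). Without 1 array, Cbl ranged from -0.93 (KO replicate 2 left out) to -0.57 (KO replicate 1 left out). Socs1, an inhibitor of Janus kinases induced by cytokines, read 6.51 and 6.58 against 6.14 and 6.21, a difference of -0.37 (SE 0.11, limma adjusted p 0.394). Both separated the groups without overlap, which the rule for naming genes required. In the whole list, 2 of 20 were higher and 4 lower without overlap, against 20.9% and 17.5% of all genes. Of the cytokine-induced genes, 15 of 23 were higher and 8 lower, with a median of 0.10 and 1 at an unadjusted p under 0.05. That gene was Pim2, a survival kinase, which read 7.47 and 7.44 against 7.97 and 7.70 (difference 0.38, SE 0.14, limma adjusted p 0.483). Batf, a transcription factor of activated T cells, had 0.51 (SE 0.25), with 10.86 and 11.27 against 11.86 and 11.28. Without 1 array, Batf ranged from 0.21 (KO replicate 1 left out) to 0.80 (KO replicate 2 left out), and Pim2 from 0.24 to 0.52 with the same arrays left out.

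**Figure D4:**
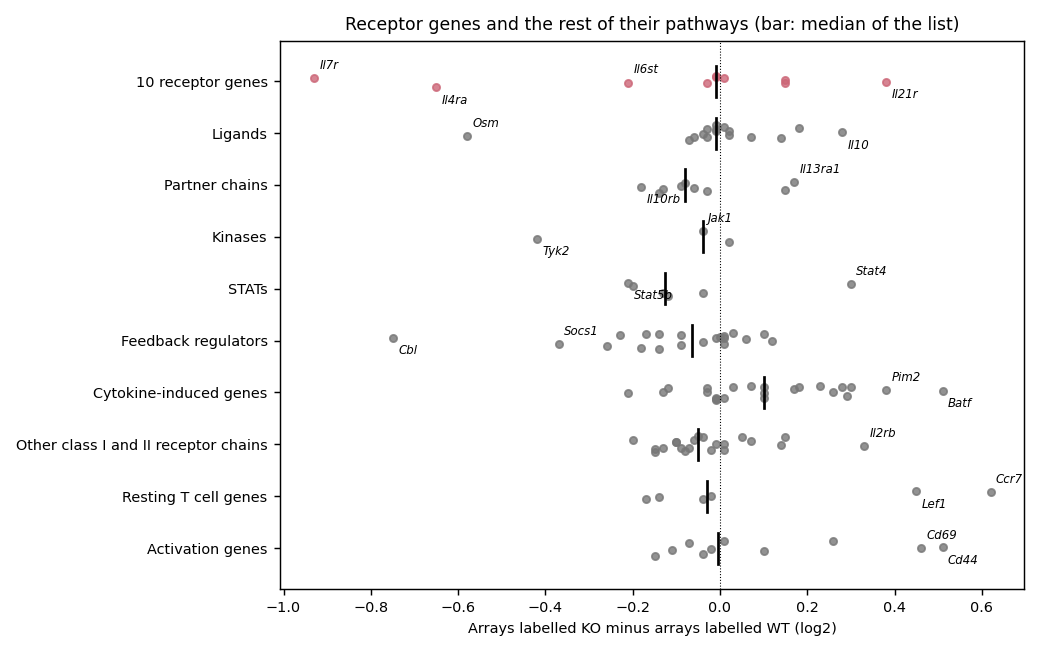
Difference between the arrays labelled KO and those labelled WT (horizontal axis, log2) for the 10 receptor genes (red) and the measured genes of each pathway list (grey); each point is a gene and each bar the median of its list. Il7r at -0.93 and Il4ra at -0.65 lie at the lower end beside Cbl at -0.75 (its brightest cluster) and Osm at -0.58. The medians lie between -0.13 and 0.10.

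Of the other class I and II receptor chains, 7 of 21 were higher and 14 lower, with a median of -0.05 and 0 at an unadjusted limma p under 0.05. Il2ra, the alpha chain of the interleukin-2 receptor, had 0.01 (SE 0.07, 95% interval -0.16 to 0.19). Il2rb, which interleukin-2 and interleukin-15 share, read 14.90 and 15.44 against 15.62 and 15.38, a difference of 0.33 (SE 0.20). It was 0.06 without WT replicate 1, 0.60 without WT replicate 3 and 0.12 after a further quantile normalization. Il3ra had -0.20 (SE 0.14), with -0.09 without WT replicate 1 and -0.32 without WT replicate 3.

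Genes tied to the resting or activated state of T cells are given because Il7r is known to be high in resting T cells and to be lowered by activation. Among resting genes 2 of 6 were higher and 4 lower, with a median of -0.03. Ccr7, a lymph node homing receptor, read 11.12 and 11.06 against 11.68 and 11.74, a difference of 0.62 (SE 0.11, limma adjusted p 0.295). Lef1 had 0.45 (SE 0.12, limma adjusted p 0.368). The other 4 were Foxo1 at -0.17 (SE 0.10), Bach2 at -0.14 (SE 0.12), S1pr1 at -0.04 (SE 0.12) and Klf2 at -0.02 (SE 0.17). Among activation genes 5 of 10 were higher and 5 lower, with a median of -0.01 and a range of -0.15 (Il2) to 0.51. The highest were the memory marker Cd44 at 0.51 (SE 0.13, limma adjusted p 0.357) and the early activation marker Cd69 at 0.46 (SE 0.11, limma adjusted p 0.360). After a further quantile normalization Lef1 had 0.29 and Cd69 0.30. In both lists 0 genes passed, and the part of cell state in the Il7r difference was not tested.

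Of the markers of other cells, 0 passed at a limma adjusted p under 0.05, and their values are given beside the receptors. Plasma cell markers were higher for 6 of 7 genes. At an unadjusted limma p under 0.05, 3 of the 7 were higher, against 6.32% of all genes. The marker lists were chosen with earlier results of these data known, so this count is a description, not a test. The mean level of the list was 5.80 and 5.89 in the arrays labelled WT and 6.43 and 6.36 in those labelled KO. It was led by Ighg2b (1.81, SE 0.12, limma adjusted p 0.106) and Jchain (1.03, SE 0.13, limma adjusted p 0.205). Mzb1 had 0.40 (SE 0.10) but lay below the median gene on every array. Of the rest, Derl3 had 0.27 (SE 0.11), Xbp1 0.20 (SE 0.18), Tnfrsf17 0.17 (SE 0.13) and Sdc1 -0.03 (SE 0.08). Xbp1, Tnfrsf17 and Sdc1 overlapped between the groups. In the NK cell list Eomes had 1.07 (SE 0.37), while Ncr1 had 0.13, Gzma 0.07 and Klrb1c -0.12, so the list mean (5.12 and 5.29 against 5.37 and 5.62) rests on Eomes. Of the myeloid markers 1 of 7 was higher and 6 lower, with means of 4.56 and 4.39 against 4.44 and 4.38. Among them Cd68 had 0.48 (SE 0.17), Lyz2 -0.25 (SE 0.08) and S100a8 -0.33 (SE 0.12). B cell markers had means of 5.05 and 5.23 against 4.99 and 5.14, and dendritic cell markers 4.39 and 4.35 against 4.32 and 4.28. All 5 measured T cell markers were higher in the arrays labelled KO without overlap. That pattern was found for 20.9% of all genes and for 4399 of the 15254 genes at or above the median gene. Cd3e had 0.56 (SE 0.06, limma adjusted p 0.141), Cd3d 0.15 (SE 0.04, limma adjusted p 0.385) and the others between 0.10 and 0.27. Of the 6 regulatory T cell markers 3 were higher and 3 lower, with Izumo1r at 0.24 (SE 0.08). For CD8 T cells, Cd8a lay below the median gene on every array (4.07 to 4.23), while Cd8b1 read 9.74 and 10.78 against 10.71 and 11.26. Alas2, the 1 erythroid marker with a value, read 4.67 to 4.82. The table has no zero, and 4 of 7 plasma cell, 4 of 6 B cell and 5 of 7 myeloid markers lay below the median gene on every array. The part of such cells in the receptor differences was not tested.

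Genes with a pattern most like that of Il7r were sought only among those above the median gene on every array. The 3 with the smallest root mean square distance between profiles centred on their own mean, over 4 arrays, were taken. These were D830030K20Rik (distance 0.057, difference -0.84), 2610507I01Rik (distance 0.057, difference -0.84) and Olfr755-ps1 (distance 0.068, difference -0.81). D830030K20Rik read 8.11 and 8.37 in the arrays labelled WT and 7.31 and 7.49 in those labelled KO. With 4 arrays many genes can share such a pattern.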

How the data were processed

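The deposited table holds log2 expression for 65528 transcript clusters on 4 arrays, which the authors made with RMA and Transcriptome Analysis Console, per the submitters' processing notes; log base 2 is taken from RMA and the range of the values, and for background handling and genome build, nothing is given in the sources used here. Groups were taken from the sample titles. The labels give no scan date or slide.

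Clusters were named through the platform annotation: 31040 had 1 gene symbol (old symbols of 1 gene counted once), 1477 several and 33011 had no entry in it. Old symbols were replaced through RefSeq GRCm38.p6, which is not known to be the build of the array and was used for names, neighbours and promoter windows. For 432 genes with several clusters the brightest was kept, leaving 30495 genes with no filter on dim ones. Differences were tested with limma 3.58.1 in R 4.3.3 (lmFit, eBayes with an intensity trend, two-sided; prior degrees of freedom 3.16; median SE 0.12), adjusted by Benjamini-Hochberg over all genes, with 95% intervals from the same fit. The procedure was tested on simulated data. The alternatives were 2 scalings, a filter on dim genes, 2 other units, 2 variance priors and leaving out each array.

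The members and lists were chosen with earlier results of these data known. All members are named, with up to 4 genes of each pathway list with an unadjusted p under 0.05 and no overlap, filled to 2 by size of difference, and the partner chains and kinases. Markers were named after their values were seen.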

Additional observations from a re-analysis of the deposited data

How the results depend on the processing

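Across 11 alternatives, 0 members were called in each (limma adjusted p under 0.05), and Il7r, Il4ra, Il6st, Il21r, Il12rb1 and Ifngr1 kept their sign in each; limma adjusted p for Il7r lay between 0.153 and 0.802. The median difference of the members, -0.01 as reported, was -0.10 after a further quantile normalization and -0.09 to 0.05 without 1 array, so it has no settled sign. The count of genes called, 2 as reported, was 1 after median-centring, 0 after a further quantile normalization, 13 among the 15254 genes at or above the median gene, 4 over all 65528 clusters, 0 without a trend, 0 with robust settings and 0 without any 1 array. After quantile normalization the difference of Il10ra was -0.03, of Il12rb2 0.02 and of Jak2 -0.05. Leaving out 1 array gave -0.21 to 0.22 for Il10ra, -0.09 to 0.08 for Il12rb2, -0.14 to 0.09 for Il6ra, -0.10 to 0.07 for Il27ra, -0.09 to 0.12 for Jak2, -0.21 to 0.76 for Il10, -0.05 to 0.39 for Il13ra1 and -0.29 to 0.03 for Ifngr2. Il12rb2 is below the filter on dim genes and has no value there. The cause of these shifts was not tested. With 1 array left in a group, that array is assumed to vary like the others. No paired analysis was possible because the groups share only replicate number 1.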
